A study of Mus musculus with 12 samples.

Results

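A set of 10 genes that ERK signalling switches on as its own brake or read-out was followed through 12 RNA-seq libraries of primary mouse neuron cultures. The set holds the ERK phosphatase genes Dusp4, Dusp5 and Dusp6, the inhibitor genes Spry1, Spry2, Spry4 and Spred1, and the transcription factor genes Etv1, Etv4 and Etv5. The 10 genes were chosen by symbol from the 17416 genes listed in both deposited expression tables, which hold 18223 and 17800 genes, and all 10 were found in each. All cultures are labelled as C57BL/6 primary neurons collected at 10 days, and each of the 4 groups has 3 libraries. In the oncogene arm, cultures made to over-express H-Ras(G12V), a mutant RAS protein locked in its active state, are set against a wild-type control labelled mCherry, after a fluorescent protein; the series text names an adeno-associated virus as the vehicle for H-Ras. The chemical arm compares wild-type cultures given etoposide, a topoisomerase II poison, with wild-type cultures given its solvent DMSO. The series uses these arms as models of oncogene-induced and stress-induced neuronal ageing and asks what they share. Not given in the sources used here are the promoter that drives the transgene, its species, the etoposide dose and the age and number of animals. In the chemical arm the sample characteristics list DMSO as the treatment where the title says etoposide, and the reverse. Groups follow the titles, which match the column names of the table, and every direction for etoposide is that of the libraries titled etoposide. The labels do not tell if the 3 libraries of a group come from separate cultures or animals; p-values therefore refer to the spread among libraries only, and that spread may be technical.

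As background, RAS proteins activate the kinase cascade RAF, MEK and ERK, and active ERK turns on genes that in turn limit it. DUSP4 and DUSP5 are nuclear phosphatases and DUSP6 is a cytoplasmic one, and all of them remove the activating phosphates from ERK. Sprouty and Spred proteins act upstream, between growth factor receptors and RAF, and SPRED1 brings the RAS inactivator neurofibromin to the membrane. ETV1, ETV4 and ETV5 form the PEA3 group of ETS transcription factors, whose mRNA levels follow FGF and ERK signalling in many tissues of the embryo. In the developing brain, glial progenitors as well as neurons use several of these genes.

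RefSeq promoter windows (GRCm38.p6, another build than the mm9 named for the expression tables) were matched by symbol for 7 of the 10 genes, giving 9 windows; Dusp4, Spry4 and Etv4 had no entry. The 250 bases before each annotated start were searched on both strands for the ETS motif CCGGAAGT, the AP-1 motif TGANTCA, the cyclic AMP element TGACGTCA, its shorter form TGACGT, which is contained in it, and the CArG box bound by serum response factor, a partner of ERK-activated ELK factors. The windows of Dusp5 and Dusp6 are printed because these genes had the largest fitted log2 fold changes of the set in both comparisons. Capitals mark matches.
Dusp5 (chr19:53528895-53529144, plus strand): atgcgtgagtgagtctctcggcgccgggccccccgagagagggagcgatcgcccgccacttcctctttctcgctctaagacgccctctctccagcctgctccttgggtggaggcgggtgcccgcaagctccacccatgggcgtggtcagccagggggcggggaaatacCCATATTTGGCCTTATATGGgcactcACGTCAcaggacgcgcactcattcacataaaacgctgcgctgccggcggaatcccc
Dusp6 (chr10:99262981-99263230, plus strand): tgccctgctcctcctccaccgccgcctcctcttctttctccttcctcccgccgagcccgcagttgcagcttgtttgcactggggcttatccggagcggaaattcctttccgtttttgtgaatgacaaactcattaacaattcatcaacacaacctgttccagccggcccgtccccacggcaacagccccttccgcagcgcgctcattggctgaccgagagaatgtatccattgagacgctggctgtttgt
The Dusp5 window holds 2 CArG boxes side by side, CCATATTTGG at position -82 and CCTTATATGG at -72, counted back from the annotated start, and the short cyclic AMP element at -56, read as ACGTCA on this strand. Of all 32851 windows of the table, 1.47% hold a CArG box and 0.0183%, or 6 windows, hold 2 or more. The short cyclic AMP element is in 6.47% of windows. The Dusp6 window holds none of the searched motifs, and neither do the other 7 windows. The ETS, AP-1 and full cyclic AMP motifs, which are in 2.88%, 6.75% and 1.55% of all windows, had no match in the 9 windows. A match describes letters in this window only, and the motifs were chosen after the expression values were known.

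Values are FPKM, fragment counts divided by transcript length and by library depth, so levels of different genes can be set side by side per length. Sums of FPKM ran from 466585 to 613964 per library, and 11829 to 12728 genes reached 1 FPKM. Depth, estimated roughly from the steps of low values, was 15500000 to 16500000 fragments in the oncogene arm and 25300000 to 29800000 in the chemical arm. The mouse Hras row read 41.2 ± 9.39 FPKM with H-Ras(G12V) and 44.4 ± 1.49 with mCherry; the species of the transgene is not given, so this value does not check the labels. One library of each arm stood apart. By Spearman correlation over the listed genes, mCherry libraries 1 and 2 formed a close pair (0.993), whereas mCherry library 3 was as far from this pair (0.965, 0.963) as from H-Ras(G12V) (0.963 to 0.968). Etoposide library 3 was nearer to DMSO (0.969 to 0.986) than to its own group (0.921, 0.946). Results are given with and without these libraries.

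Neuron markers were present in every group, and so were markers of other cells. The 14 neuron markers summed to 2477 to 2916 FPKM in the mCherry libraries and to 1642 to 1985 in the H-Ras(G12V) libraries. The 10 astrocyte markers summed to 1205 to 3163 and 2603 to 3749 FPKM, the 10 oligodendrocyte-lineage markers to 210 to 729 and 866 to 1070, and the 8 progenitor and cycling markers to 148 to 161 and 289 to 375. The 10 fibroblast and mural markers summed to 181 to 288 FPKM in mCherry and 44.8 to 47.8 in H-Ras(G12V) libraries. Endothelial markers were low, with a sum of at most 6.38 FPKM for 8 genes in any library. Only Kdr averaged 1 FPKM or more in the oncogene arm, at 2.80 ± 1.74 in mCherry and 0.487 ± 0.110 in H-Ras(G12V) libraries (SD, n = 3).

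In the control cultures the set spanned a wide range of levels per length. Etv5 and Spry2 were the most abundant, at 58.8 ± 31.5 and 47.6 ± 22.3 FPKM in the mCherry libraries and 70.8 ± 16.7 and 57.3 ± 4.37 in the DMSO libraries (SD, n = 3). Spred1 (32.5 ± 8.11 and 27.4 ± 8.95 FPKM) and Dusp6 (31.5 ± 24.1 and 47.4 ± 11.1 FPKM) came next, with the order of these genes differing between the control groups. Etv4, Spry1 and Dusp4 lay close together, at 22.3 ± 2.67, 22.3 ± 13.1 and 21.8 ± 3.49 FPKM in mCherry and at 21.9 ± 6.30, 23.0 ± 2.61 and 22.6 ± 1.73 in DMSO libraries, differences smaller than their spread. Etv1 (13.5 ± 3.21 and 12.04 ± 3.74 FPKM) and Spry4 (11.04 ± 6.38 and 15.1 ± 1.37 FPKM) were lower. Dusp5 was the least abundant, at 2.19 ± 1.72 and 5.11 ± 0.985 FPKM. The tables were treated as normalised separately, so these are levels side by side and not a comparison of mCherry with DMSO.

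**Figure D1:**
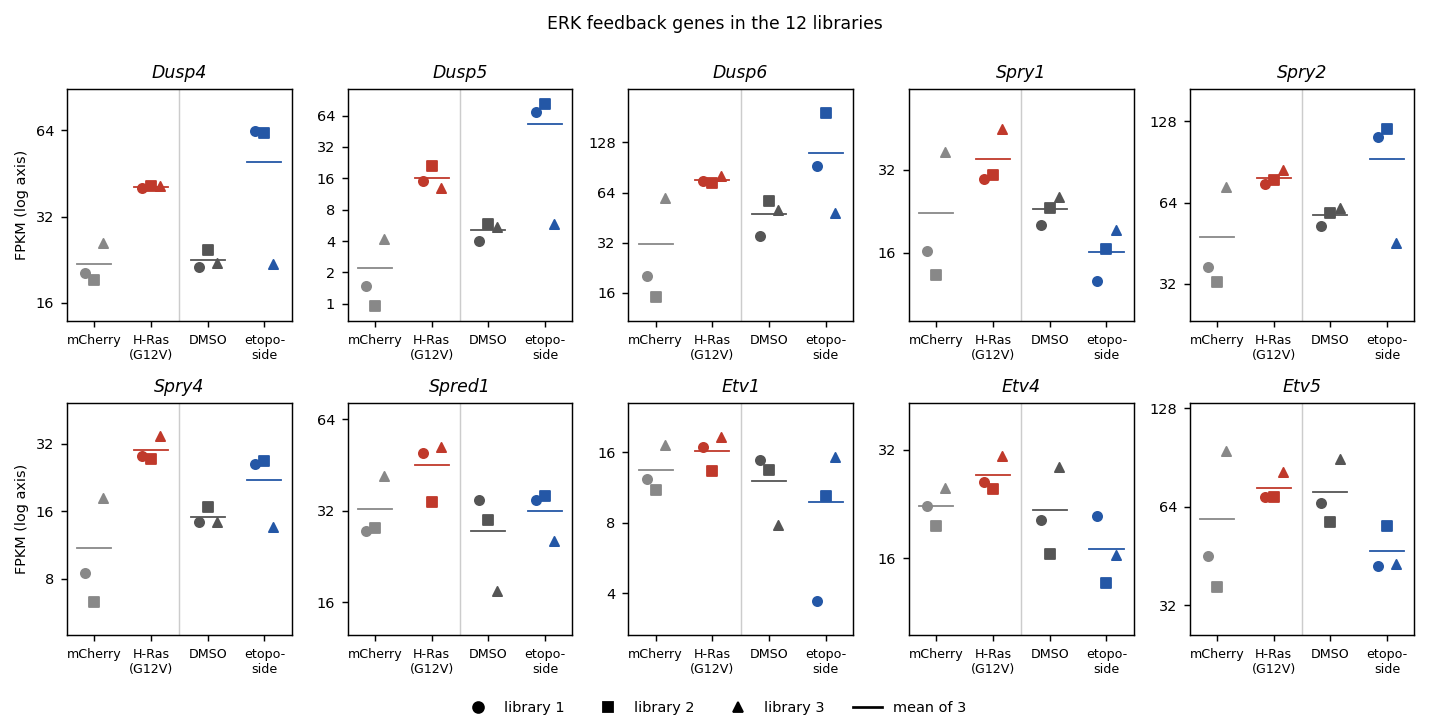
FPKM of each of the 10 genes on a log axis (vertical) in the 4 groups (horizontal); each point is a library, with its shape giving the library number, and lines are means of 3 libraries. The triangle of mCherry library 3 is the highest of its group in all 10 panels, and in the Dusp4, Dusp5, Dusp6, Spry2, Spry4 and Spred1 panels the triangle of etoposide library 3 lies below both other etoposide libraries.

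H-Ras(G12V) against mCherry: Dusp4, Dusp5 and Spry4 rose, and the fitted difference was above 0 for all 10 genes. Over the 12724 genes tested, 17% passed, 10.3% higher and 6.67% lower, so 3 of 10 higher stands beside a background of 10.3%. The share of all calls that were higher was 60.7% on FPKM as deposited, 39.1% with libraries scaled to a common sum and 49.1% with median-of-ratios scaling, and 3 of the 10 genes were called higher under each. The median log2 fold change of the 10 genes was 0.78, beside 0.05 for all tested genes. The groups did not overlap for 5 of the 10 genes, all higher in H-Ras(G12V), where 23.7% of tested genes did so. Tests were made with limma on log2(FPKM + 1) with Benjamini-Hochberg adjustment over all tested genes, and log2 fold changes are on that scale, which understates changes of low genes.

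Among the phosphatase genes, Dusp5 had the largest change. It read 15.0, 20.9 and 12.9 FPKM in H-Ras(G12V) libraries 1, 2 and 3, against 1.47, 0.950 and 4.16 in the mCherry libraries. Every H-Ras(G12V) library was above every control, by a ratio of means of 7.41, and the log2 fold change was 2.54 ± 0.37 (SE, limma adjusted p = 0.00804). Dusp5 passed without each library in turn but not in a single fit of all 12 libraries, where the spread is pooled over the 4 groups (limma adjusted p = 0.0793). Because these are bulk libraries, more or fewer cells of a type and more or less RNA per cell cannot be told apart, here and for each gene below.

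Dusp4 was the least variable gene of the set within the oncogene group. It read 40.2, 40.9 and 40.9 FPKM with H-Ras(G12V) and 20.3, 19.3 and 25.8 with mCherry. The groups were apart, with a ratio of 1.87 and a log2 fold change of 0.88 ± 0.14 (limma adjusted p = 0.00956), and the call was lost both on leaving out H-Ras(G12V) library 1 (limma adjusted p = 0.0517) and in the single fit of all 12 libraries (0.168).

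Dusp6, which encodes the cytoplasmic ERK phosphatase, read 74.7, 72.5 and 79.9 FPKM with H-Ras(G12V) and 20.1, 15.1 and 59.2 with mCherry. The groups did not overlap, but mCherry library 3 stood far above the other control libraries. The log2 fold change of 1.49 ± 0.45 did not pass (limma adjusted p = 0.0629), and it was 2.06 ± 0.13 without mCherry library 3 (limma adjusted p = 5.69e-05).

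Of the Sprouty and Spred genes, Spry4 rose. It read 28.1, 27.2 and 34.7 FPKM against 8.54, 6.29 and 18.3, a ratio of 2.72 with no overlap (log2 fold change 1.48 ± 0.34, limma adjusted p = 0.0297). This call was lost without any single library other than mCherry library 3 (limma adjusted p from 0.0735 to 0.111), and with mCherry libraries 1 and 2 averaged into 1 (0.0815). Spry2 read 75.3, 77.3 and 84.6 FPKM against 37.0, 32.5 and 73.2, apart by a small margin, and did not pass (log2 fold change 0.81 ± 0.29, limma adjusted p = 0.0957).

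Spry1 read 29.8, 30.8 and 45.02 FPKM with H-Ras(G12V) and 16.2, 13.3 and 37.3 with mCherry, so that mCherry library 3 lay within the H-Ras(G12V) range. Its log2 fold change was 0.75 ± 0.37 (limma adjusted p = 0.1998). Spred1, whose product acts with neurofibromin, read 49.6, 34.3 and 51.8 FPKM against 27.6, 28.0 and 41.8, also overlapping (log2 fold change 0.47 ± 0.22, limma adjusted p = 0.185).

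With all 6 libraries, the PEA3-group genes differed least. Etv5 read 68.5, 68.4 and 81.9 FPKM with H-Ras(G12V) and 45.3, 36.3 and 94.8 with mCherry, the highest value being a control. Etv4 read 26.04, 24.9 and 30.9 FPKM against 22.3, 19.7 and 25, and Etv1 read 16.9, 13.3 and 18.6 against 12.3, 11.1 and 17.1. The groups overlapped for all 3 genes. Their log2 fold changes were 0.42 ± 0.33, 0.28 ± 0.14 and 0.26 ± 0.20 (limma adjusted p = 0.402, 0.209 and 0.380), with 95% intervals from -0.36 to 1.21, from -0.05 to 0.61 and from -0.20 to 0.73. Without mCherry library 3 they were 0.83 ± 0.14, 0.36 ± 0.13 and 0.44 ± 0.15 (limma adjusted p = 0.0024, 0.0512 and 0.0479). Spred1 was then at 0.66 ± 0.18 (0.019), below Etv5.

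The control libraries differed among themselves in these genes. All 10 genes were highest in mCherry library 3 among the mCherry libraries, as were 43.7% of tested genes, and 5 of the 10 were above the lowest H-Ras(G12V) library there. Relative to the mean of mCherry libraries 1 and 2, mCherry library 3 was 3.44 times as high for Dusp5, 3.36 times for Dusp6, 2.53 times for Spry1 and 2.47 times for Spry4, down to 1.19 times for Etv4. Summed astrocyte and oligodendrocyte-lineage markers were also higher in this library, at 3163 and 729 FPKM, against 1205 and 274 in library 1 and 1212 and 210 in library 2. Summed neuron markers were highest there too, at 2916 FPKM against 2477 and 2587 in libraries 1 and 2. Summed progenitor and cycling markers were not higher, at 149 FPKM against 161 and 148. The astrocyte markers varied unevenly among the mCherry libraries. Gfap and Aldoc read 838 ± 563 and 384 ± 367 FPKM, but Aldh1l1 and Gja1 48.04 ± 2.73 and 67.4 ± 6.67 (SD, n = 3). The part of these markers in the levels of the 10 genes was not tested. Without mCherry library 3, 9 of the 10 genes passed as higher, all but Etv4 (limma adjusted p = 0.0512), where 25.4% of tested genes did so. The controls are then only mCherry libraries 1 and 2, which are very alike; with these averaged into 1 and mCherry library 3 kept, 2 of the 10 passed as higher, Dusp4 and Dusp5, where 3.08% of tested genes did so.

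**Figure D2:**
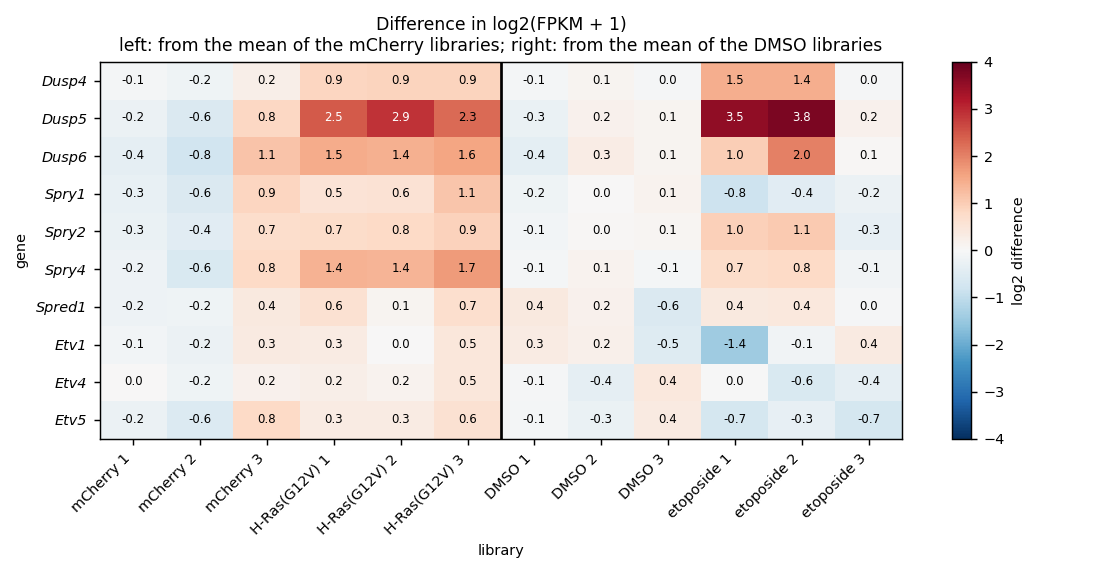
Difference in log2(FPKM + 1) of each gene (rows) in each library (columns) from the mean of the control libraries of its own table, mCherry on the left and DMSO on the right; red is higher and blue lower. Dusp5 reaches 3.8 in etoposide library 2 and 0.2 in etoposide library 3, and the column of mCherry library 3 is red throughout.

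Etoposide against DMSO: none of the 10 genes passed with all 6 libraries, and 2 of them, Dusp4 and Dusp5, had an unadjusted limma p under 0.05. Few genes passed at all, 0.453% of the 12371 tested, all of them lower, whereas 918 genes had an unadjusted p under 0.05 in the higher direction. The fitted difference was above 0 for 6 genes of the set and below 0 for Spry1 and the 3 Etv genes, with a median log2 fold change of 0.36 beside 0.09 for all tested genes. Without etoposide library 3 the phosphatase genes Dusp4, Dusp5 and Dusp6 and the Sprouty genes Spry2 and Spry4 passed as higher, 5 of 10, where 18.4% of tested genes passed as higher and 13.4% as lower.

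Dusp5 again had the largest fitted log2 fold change of the set. It read 69.8 and 81.9 FPKM in etoposide libraries 1 and 2 and 5.88 in etoposide library 3, against 3.99, 5.85 and 5.48 in the DMSO libraries. The first pair stood 14.9 times above the DMSO mean, while etoposide library 3 was just above the highest control. Its log2 fold change was 2.50 ± 0.81 with all libraries (limma adjusted p = 0.353) and 3.66 ± 0.26 without etoposide library 3 (limma adjusted p = 4.52e-05).

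Dusp4 had the same split, with 63.8 and 62.8 FPKM in etoposide libraries 1 and 2, 21.8 in library 3 and 21.3, 24.5 and 21.9 in the DMSO libraries. Etoposide library 3 lay inside the control range. The log2 fold change was 0.95 ± 0.40 (limma adjusted p = 0.357), and 1.45 ± 0.23 without that library (0.00183). Dusp6 read 92.5, 190.8 and 48.5 FPKM in etoposide libraries 1, 2 and 3, against 35.2, 57 and 50.1 with DMSO. The high libraries differed from each other more than for Dusp4, and the log2 fold change was 1.02 ± 0.46 (limma adjusted p = 0.359), or 1.49 ± 0.34 without library 3 (0.0101).

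Spry2 read 112.2, 120.4 and 45.3 FPKM with etoposide and 52.4, 58.7 and 60.8 with DMSO. Etoposide library 3 was below all controls here, and the log2 fold change was 0.56 ± 0.37 (limma adjusted p = 0.456), or 1.01 ± 0.23 without it (0.00952). Spry4 read 25.9, 26.8 and 13.7 FPKM against 14.4, 16.7 and 14.3, with log2 fold changes of 0.47 ± 0.31 (limma adjusted p = 0.458) and, without library 3, 0.77 ± 0.24 (0.0339).

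Spry1 was placed the other way. It read 12.6, 16.5 and 19.3 FPKM in the etoposide libraries and 20.2, 23.3 and 25.4 in the DMSO libraries, so that all 3 etoposide libraries were below all controls. The ratio of means was 0.701 and the log2 fold change -0.50 ± 0.27 (limma adjusted p = 0.391; 0.0797 without etoposide library 3). Spred1 read 34.7, 35.8 and 25.4 FPKM against 34.8, 29.9 and 17.4, with overlapping groups (log2 fold change 0.25 ± 0.32, limma adjusted p = 0.672).

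Etv5 was also below all controls in every etoposide library, at 42.2, 55.8 and 42.6 FPKM against 65.5, 57.3 and 89.5. Its ratio of means was 0.662 and its log2 fold change -0.57 ± 0.27 (limma adjusted p = 0.368). Groups with no overlap in the lower direction made up 8.17% of tested genes, and 7.64% in the higher direction. Etv4 read 20.9, 13.7 and 16.4 FPKM against 20.4, 16.4 and 28.8, and Etv1 read 3.71, 10.4 and 15.3 against 14.9, 13.4 and 7.81, both overlapping (log2 fold changes -0.33 ± 0.30 and -0.40 ± 0.47, limma adjusted p = 0.563 and 0.651). Etoposide library 1 had the lowest Etv1 value of all 12 libraries.

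In the 10 genes etoposide library 3 was at 0.602 to 1.27 times the DMSO mean. It was at 0.965, 1.15 and 1.02 times that mean for Dusp4, Dusp5 and Dusp6. It lay below all controls for Spry1, Spry2, Spry4 and Etv5, and only just for Etv4, at 16.39 FPKM against 16.41. Oligodendrocyte-lineage and cycling genes were low in all 3 etoposide libraries. Sox10, a transcription factor of that lineage, read 0.0900, 0.140 and 0.0100 FPKM against 25.1, 18.8 and 25.4 (limma adjusted p = 0.000497), and the mitotic cyclin gene Ccnb1 read 0.540, 0.390 and 0.330 against 10.2, 15.98 and 11.6 (0.00226). Summed oligodendrocyte-lineage markers were 101, 64.8 and 209 FPKM in etoposide libraries 1, 2 and 3 and 534 to 892 with DMSO. Neuron markers summed to 974, 2168 and 3461 FPKM in etoposide libraries 1, 2 and 3 and to 3085 to 3252 in the DMSO libraries. Astrocyte markers summed to 990, 631 and 901 FPKM against 1051 to 1628, and microglial markers to 119, 82.4 and 13.4 against 5.80 to 43.3. Of the microglial markers, Cd68 read 59.6 ± 49.3 FPKM with etoposide and 6.21 ± 4.58 with DMSO (SD, n = 3). The other tested microglial markers had ratios of means of 0.806 (C1qa), 0.887 (C1qb), 0.815 (Trem2) and 1.19 (Tmem119). Progenitor and cycling markers summed to 113, 89.7 and 44.7 FPKM against 101 to 117. Etoposide library 3 was thus the nearest to the DMSO range for summed neuron, oligodendrocyte-lineage and microglial markers. It was not the nearest for astrocyte markers, and it was the farthest for progenitor and cycling markers. The part of these markers in the levels of the 10 genes was not tested.

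**Figure D3:**
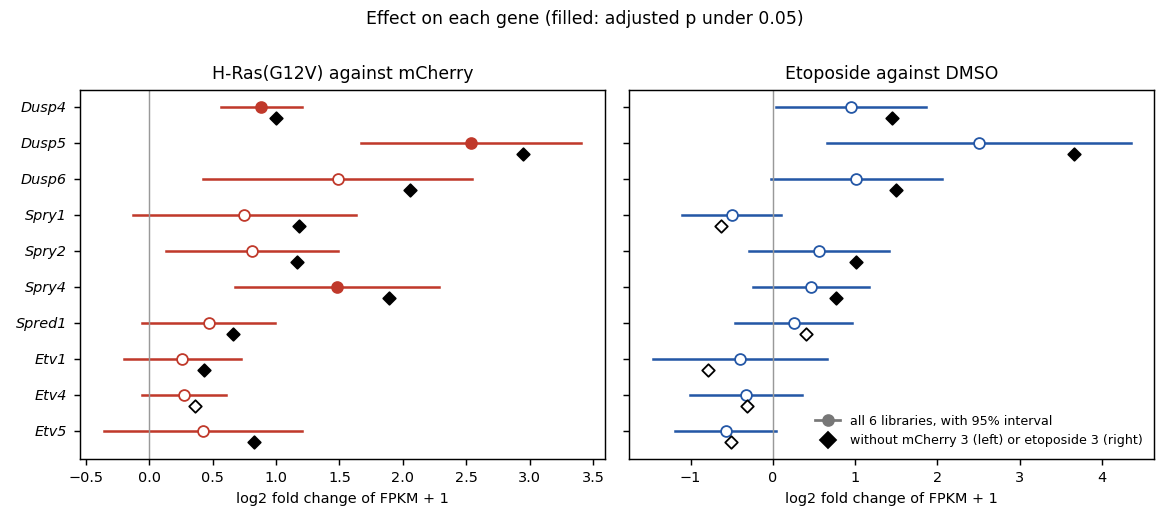
Log2 fold change of FPKM + 1 (horizontal) for each of the 10 genes (vertical), with all 6 libraries and the 95% interval (circles) and without mCherry library 3 or etoposide library 3 (diamonds); filled symbols passed an adjusted p of 0.05. Dusp5 has the largest value in both panels, 2.54 and 2.50, and the Etv genes and Spry1 lie below 0 in the etoposide panel.

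The models were compared by subtracting the etoposide effect from that of H-Ras(G12V) in a single limma fit of all 12 libraries, in which a shift of a gene between the tables cancels. None of the 10 genes passed. Of the 12646 genes tested 3.76% passed, 3.4% with a higher and 0.356% with a lower effect of H-Ras(G12V). Of the 10, 2 genes, Spry1 and Etv5, had an unadjusted limma p under 0.05, both in the higher direction. At that unadjusted threshold, 1351 of all tested genes were higher and 959 lower. For Dusp5 the effects of 2.54 and 2.50 differed by 0.03, with a 95% interval from -2.22 to 2.29, and for Dusp4 the effects of 0.88 and 0.95 differed by -0.07, with an interval from -1.07 to 0.94. These intervals are wide, so likeness of the effects is not shown. The difference for Spry1 was 1.25 ± 0.46 (limma adjusted p = 0.180), for Spry4 1.02 ± 0.48 (0.279) and for Etv5 1.00 ± 0.43 (0.248). Without mCherry library 3 these genes passed as higher, with differences of 1.68, 1.42 and 1.399 (limma adjusted p = 0.0102, 0.0429 and 0.0186). Of tested genes 7.67% passed there, 5.65% as higher. A setting without both mCherry library 3 and etoposide library 3 was chosen after seeing the data. There Spry1, Spry4 and Etv5 passed as higher with 1.81, 1.12 and 1.34 (limma adjusted p = 0.00141, 0.00749 and 0.00749). In that setting 31.1% of tested genes passed, 14.7% as higher. The spread in this fit is pooled over the 4 groups.

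Other genes of the pathway, listed by role, were set beside the 10. Over all tested genes, 10.3% were called higher and 6.67% lower with H-Ras(G12V), and 0.453% were called with etoposide, all of them lower. Without etoposide library 3 the shares were 18.4% higher and 13.4% lower. Of 22 genes of the cascade itself, from the adaptor Grb2 to the kinases Braf, Map2k1 and Mapk3, 1 rose with H-Ras(G12V) and 0 fell. It was Rps6ka3, a kinase that ERK activates, at 28.2 ± 5.68 against 15.98 ± 1.35 FPKM (SD, n = 3, limma adjusted p = 0.0276), and the call was lost with libraries scaled to a common sum (0.0546). The median log2 fold change of the cascade was -0.05, beside 0.78 for the 10 feedback genes. With etoposide 0 of 22 passed, and without etoposide library 3 1 was higher and 2 were lower.

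Among 10 tested DUSP, Sprouty and Spred genes outside the set, 1 rose and 1 fell with H-Ras(G12V). Dusp10, a phosphatase of the stress kinases p38 and JNK, rose from 2.11 ± 0.197 to 7.003 ± 0.798 FPKM (limma adjusted p = 0.00260). Dusp8, another phosphatase of that kind, fell from 33.1 ± 6.91 to 12.4 ± 1.396 FPKM (0.00662). In the etoposide table Dusp10 read 19.1, 15.9 and 1.61 FPKM against 1.2, 2.4 and 1.46 with DMSO, the same split between etoposide libraries as in Dusp5, and 0 of 11 genes passed; without etoposide library 3, 5 were higher and 1 was lower.

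Of 10 tested ETS factors outside the PEA3 group, 3 rose with H-Ras(G12V) and 0 fell. Ets1 rose from 2.60 ± 0.348 to 8.47 ± 0.270 FPKM (limma adjusted p = 0.00215). Erf, a repressor that ERK inactivates, rose from 14.0 ± 2.68 to 31.5 ± 2.80 FPKM (0.00696), and Elk3 from 8.24 ± 3.03 to 16.3 ± 1.76 FPKM (0.0337; 0.0535 with libraries scaled to a common sum). With etoposide 0 of 10 passed, and without etoposide library 3, 2 were higher.

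Of 19 tested ERK targets outside the feedback genes, 12 rose and 1 fell with H-Ras(G12V), with a median log2 fold change of 1.53. This list was drawn up with earlier results of these data known. The EGF-family ligand gene Areg rose from 0.373 ± 0.196 to 7.77 ± 1.25 FPKM (limma adjusted p = 0.000950). Egr1, an immediate early transcription factor, read 48.7 ± 8.16 against 11.1 ± 13.5 FPKM (0.0443) and Ccnd1, the cyclin D1 gene, 317 ± 93.6 against 77.6 ± 80.5 FPKM (0.0425), and both calls were lost with libraries scaled to a common sum (0.0521 and 0.0506). The ephrin receptor gene Epha4 fell from 57.7 ± 15.3 to 18.3 ± 2.75 FPKM (0.00731). With etoposide the median was 2.04 and 0 of 19 passed; without etoposide library 3, 15 were higher and 1 was lower. Areg read 23.3, 7.75 and 0.180 FPKM in etoposide libraries 1, 2 and 3 and 0.1 to 0.51 with DMSO. Egr1 did not follow that split, at 67.7, 110.6 and 116.5 FPKM against 36.6, 72.8 and 42.8.

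FGF receptors, ligands and cofactors, which lie upstream of Sprouty and PEA3 genes in development, were mostly not called. Of 12 tested genes 2 rose, 2 fell and 8 did not pass with H-Ras(G12V), where 10.3% of all tested genes were called higher and 6.67% lower, and 0 passed with etoposide. The counts with H-Ras(G12V) were 1 higher and 3 lower with libraries scaled to a common sum, and 1 and 0 with mCherry libraries 1 and 2 averaged into 1. Fgfr3, also an astrocyte marker, rose from 15.5 ± 0.962 to 32.2 ± 4.43 FPKM (limma adjusted p = 0.00662) and Fgf2 from 0.740 ± 0.468 to 2.25 ± 0.672 (0.0465; 0.0607 with libraries scaled to a common sum). Flrt3 and Flrt2, membrane proteins that bind FGF receptors, fell from 13.4 ± 0.966 to 7.18 ± 1.24 FPKM (0.0148) and from 8.42 ± 0.891 to 5.13 ± 1.03 (0.0433).

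**Figure D4:**
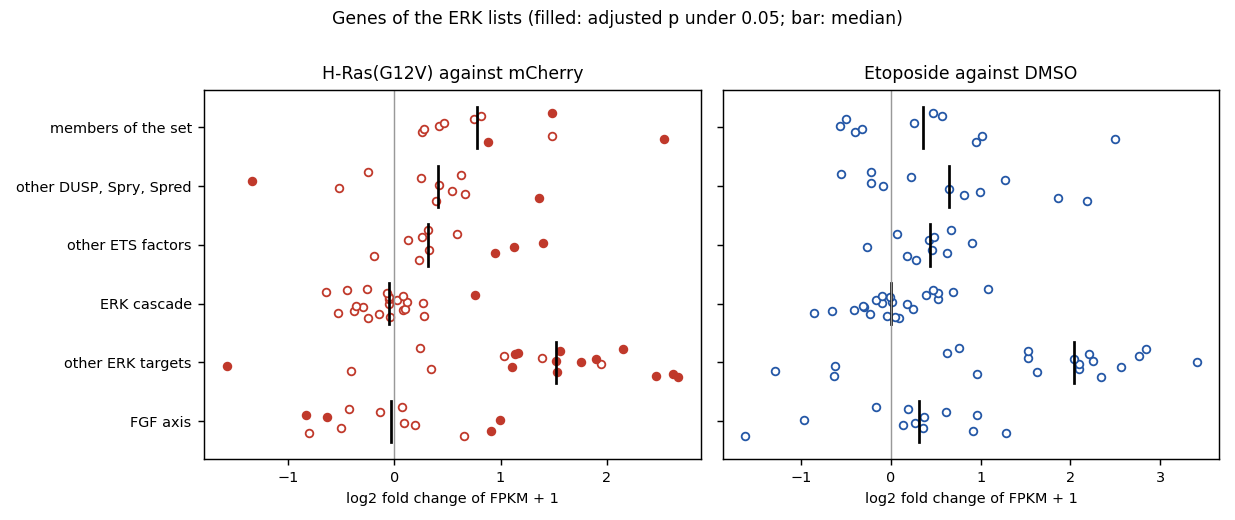
Log2 fold change of FPKM + 1 (horizontal) for each tested gene of the 6 groups of genes (vertical) in both comparisons; each point is a gene, filled where the adjusted p was under 0.05, and bars are medians. With H-Ras(G12V) the median is 0.78 for the 10 feedback genes, -0.05 for the cascade and 1.53 for the other ERK targets, and no point of the etoposide panel is filled.

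Without mCherry library 3, 44.9% of all tested genes passed with H-Ras(G12V), 25.4% higher and 19.5% lower. The counts of the lists were then 7 higher and 2 lower of 10 for the DUSP, Sprouty and Spred genes outside the set, 7 and 0 of 10 for the ETS factors, 2 and 4 of 22 for the cascade, 15 and 1 of 19 for the ERK targets and 3 and 4 of 12 for the FGF genes. With mCherry libraries 1 and 2 averaged into 1, where 5.02% of all tested genes passed, the calls of 7 of the genes named from these lists were lost. Their limma adjusted p was then 0.105 for Elk3, 0.0962 for Rps6ka3, 0.118 for Egr1, 0.116 for Ccnd1, 0.143 for Fgf2, 0.0538 for Flrt3 and 0.110 for Flrt2.

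Markers of cell types were tested beside these genes. Over all tested genes, 10.3% were called higher and 6.67% lower with H-Ras(G12V). These shares were 25.4% and 19.5% without mCherry library 3, and 3.08% and 1.94% with mCherry libraries 1 and 2 averaged into 1. With etoposide 0.453% were called, all of them lower. Without etoposide library 3, 18.4% were higher and 13.4% lower. With H-Ras(G12V), of 9 tested oligodendrocyte-lineage markers 6 rose, of 10 astrocyte markers 3 rose, of 8 progenitor and cycling markers 6 rose, of 14 neuron markers 1 rose and 2 fell, and of 10 fibroblast and mural markers 9 fell. Without mCherry library 3, 9 oligodendrocyte-lineage, 9 astrocyte and 7 progenitor and cycling markers were higher, 6 neuron markers were higher and 5 lower, and 1 fibroblast and mural marker was higher and 9 lower. With mCherry libraries 1 and 2 averaged into 1, these counts were 0, 2 and 2 higher, 0 neuron markers higher and 1 lower, and 8 fibroblast and mural markers lower. With etoposide, 4 of 8 tested oligodendrocyte-lineage markers and 3 of 7 progenitor and cycling markers fell. Without etoposide library 3, 6 and 4 of these were lower and 1 progenitor and cycling marker was higher, 6 of 14 neuron markers were lower, and of 10 astrocyte markers 7 were lower and 1 higher. The part of these markers in the levels of the feedback genes was not tested.

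The genes with profiles most like the set were found by Pearson correlation with the mean of the scaled profiles of the 10 genes, over the 12 libraries and centred within each table, among 9170 other genes averaging 5 FPKM or more in each table. They were Cort (r = 0.946), Npy (0.940), Prickle1 (0.940), Skap2 (0.935), Slc25a25 (0.933) and Gfm1 (0.932). The 10 genes do not share a single profile: the correlation of each with the mean of the other 9 ran from 0.961 for Spry4, 0.881 for Dusp6 and 0.857 for Spry2 down to 0.221 for Etv4 and 0.025 for Etv1. The libraries share their groups, so these values describe a ranking and nothing more. Of the 6, Npy, which encodes neuropeptide Y, and the mitochondrial carrier gene Slc25a25 passed as higher with H-Ras(G12V) (limma adjusted p = 0.0287 and 0.0229). Npy read 48.9, 48.1 and 287.7 FPKM in mCherry libraries 1, 2 and 3 and 598 to 798 with H-Ras(G12V). The 6 genes were selected for their likeness to the 10 genes in these same libraries. Neither their p-values nor the high place of mCherry library 3 for Npy is therefore a separate result.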

How the data were processed

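Libraries were made from oligo-dT-enriched mRNA, per the labels' protocols. The authors deposited 2 tables, 1 per arm, of FPKM per gene symbol and library (per the file headers). HISAT, Bowtie2, RSEM and mm9 are named, without versions or roles, in the submitters' processing notes; filters and any further scaling are not given in the sources used here. Each table was analysed alone as log2(FPKM + 1) with limma 3.58.1 in R 4.3.3 (lmFit, eBayes with trend, two-sided, Benjamini-Hochberg, threshold 0.05) on genes averaging 1 FPKM or more across its 6 libraries. Depth was estimated from the steps of low values in genes with a single GENCODE M21 transcript; the estimate for mCherry library 2 was unstable when its genes were parted. No count model was fitted. The fit was tested on simulated data. Alternatives were the pseudocount, the filter, the scaling, each library left out, a replicate block, mCherry libraries 1 and 2 averaged and a single fit of all libraries. The 10 genes, lists and tests were chosen with earlier results of these data known. Named genes are the 10, up to 3 called genes per direction of each list (of the cell-type lists only some are named), and the 6 genes of the closest profile. Figures were drawn with matplotlib 3.10.9.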

Additional observations from a re-analysis of the deposited data

How the results depend on the processing

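Across 490 alternative values of the 10 genes in the 3 comparisons, 475 kept the sign of the effect, 9 lost the call and 18 gained it; no called value changed sign. In the oncogene arm the count of genes passing was 2161. It ran from 496 to 5716 with 1 library left out, the highest without mCherry library 3, and was 496 in the single fit of 12 libraries and 639 with mCherry libraries 1 and 2 averaged. Of the 10 feedback genes, 3 were called higher; this was 1 to 9 with 1 library left out, 1 in the single fit (Spry4, with Dusp4 and Dusp5 lost) and 3 under the pseudocounts, filters and scalings tried. The share of higher calls over all genes was 60.7% on FPKM as deposited, 39.1% with a common sum and 49.1% with median-of-ratios scaling, and the median log2 fold change moved from 0.05 to -0.07 and -0.01. With etoposide the count was 56; it was 22 with a mean of at least 5 FPKM, 12 with the replicate block, 194 in the single fit and 4 to 3938 with 1 library left out, the highest without etoposide library 3, which also moved the count of feedback genes from 0 to 5 (0 to 5 over libraries left out). For the difference between effects the count was 475; it was 256 with a mean of at least 5 FPKM, 277 to 2868 with 1 library left out, and 3947 without both mCherry library 3 and etoposide library 3, an alternative chosen after seeing the data. Feedback genes called there were 0, with 0 to 3 over libraries left out and 3 without both libraries. The replicate numbers of the titles were not seen to pair the libraries, but correlations among 3 libraries per group cannot exclude a pairing. Deviations of same-numbered libraries correlated at -0.039, 0.034 and 0.119 in the oncogene arm, where 0.119 was the highest value. In the chemical arm they correlated at -0.265, -0.171 and -0.151. Not every library correlated best with its own number. With the replicate block 1681, 12 and 345 genes passed in the 3 comparisons, with 4, 0 and 0 feedback genes; the added call was Dusp6 (limma adjusted p = 0.0331). The cause of these shifts was not tested, beyond the fewer libraries and genes that some alternatives hold.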
